A study of Homo sapiens with 6 samples.

Results

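The enzymes that build purine nucleotides from small precursors are described here in HepG2, a human cell line established from a liver cancer. The 10 genes are PRPS1, PPAT, GART, PFAS, PAICS, ADSL, ATIC, IMPDH1, IMPDH2 and GMPS, taken by gene symbol from a table of 60605 genes, and each symbol matched 1 gene. The series compares 3 libraries of cells infected with a lentivirus carrying a control short hairpin RNA (sh-control) with 3 libraries of cells infected with a lentivirus carrying a hairpin against circFTO, a circular RNA of the FTO gene (sh-circFTO). All 6 libraries are labelled wild type in genotype and were grown in DMEM with fetal bovine serum, and their labels name no serine or glycine withdrawal. Counts per gene do not measure the circular RNA, so its knockdown is not read here. The cell type is labelled epithelial, while the growth protocol calls the cells mesenchymal. The labels do not tie the libraries of a group to separate cultures. P-values therefore measure the spread between these libraries, which may be technical.

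In de novo purine synthesis the base is assembled step by step on a ribose phosphate. PRPP synthetases (PRPS1 and its isozyme PRPS2) make the activated ribose, PPAT takes the committed step by adding an amino group from glutamine, and GART, PFAS, PAICS, ADSL and ATIC carry the ring to inosine monophosphate (IMP), using glycine, glutamine, aspartate, carbon dioxide and formyl groups carried by folate. At IMP the route divides: IMP dehydrogenase (IMPDH1 and IMPDH2) and GMPS lead to GMP, while adenylosuccinate synthetase (ADSS1 and ADSS2) and ADSL, which acts in both places, lead to AMP. In liver the pathway also feeds the blood with purines, and MYC is known to activate several of its genes.

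Total counts ran from 13361333 to 16178079 per library. Levels are given as normalised FPKM, the count per kilobase of exonic length per 1000000 counts of a library scaled by TMM, a method that centres the typical gene on no change. Of 12865 genes tested, 34.8% were called lower and 34.9% higher in sh-circFTO at an adjusted p under 0.05, so a call by itself is common in this comparison. When library totals alone set the scale, the median gene moved by 0.145 on the log2 scale, and the shares became 27.0% lower and 44.3% higher. Summed over 6 liver markers (ALB, AFP, TTR, APOA1, SERPINA1 and TF), deposited FPKM was 3809 to 3937 in sh-control and 3237 to 3334 in sh-circFTO. All 6 were detected. Deposited FPKM is scaled by library totals. Under TMM scaling the falls of these markers were uneven. The log2 fold change was -1.37 for TTR, -0.96 for SERPINA1 and -0.62 for TF. It was -0.21 for ALB, -0.25 for AFP and -0.22 for APOA1. Of 9 markers of blood, endothelium and fibroblasts, PTPRC had 0 counts in all libraries. The summed FPKM of the 3 blood markers lay between 2.07 and 2.36 in the sh-control libraries and between 5.33 and 5.47 in the others, nearly all from LAPTM5. For the 3 endothelial markers it was 0.71 to 1.25 and 1.57 to 1.96, and for the 3 fibroblast markers 0 to 0.02 and 0.07 to 0.30. The part of these genes in the results was not tested. Fewer cells of a kind and less RNA per cell cannot be told apart in such libraries.

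Of the 10 enzymes, all passed the filter on low values, 6 were lower in sh-circFTO, 1 was higher and 3 were not called. The 7 calls compare with 69.7% of all tested genes called in either direction, so their number is close to the background. The groups did not overlap for 8 of the 10, and for 71.5% of all tested genes. Their median log2 fold change was -0.18, beside 0.00 over all tested genes. IMPDH2 was the one enzyme of the 10 that changed by more than 2-fold, a size of fall that 7.62% of tested genes reached. With library totals only, 3 enzymes (PFAS, PAICS and IMPDH2) were lower and 3 (PRPS1, GART and ADSL) higher, beside 71.3% of tested genes called, and the median was -0.03 beside 0.15 over all tested genes. The calls for PRPS1, GART, ATIC, IMPDH1 and GMPS differed between the scalings and PPAT was called under neither, while the falls of PFAS, PAICS and IMPDH2 and the rise of ADSL were called under both.

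**Figure D1:**
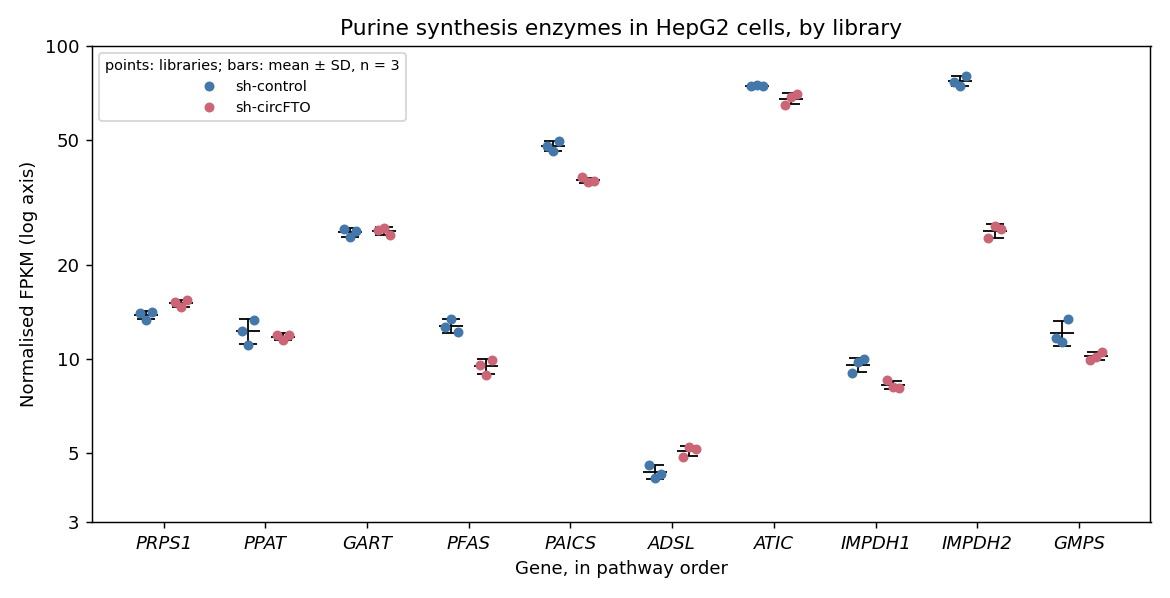
Normalised FPKM (log axis) of the 10 enzymes in pathway order, with each library as a point and the mean ± SD of 3 libraries as a bar. IMPDH2 falls from 74.7 to 80.4 in sh-control to 24.2 to 26.6 in sh-circFTO, a wider gap on the log axis than for any other of the 10 genes. The groups of PPAT and GART overlap. Those of every other gene shown do not, which was also so for 71.5% of all tested genes.

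The largest change of the 10 was in the first step toward GMP. IMPDH2, the isozyme of IMP dehydrogenase that dividing cells chiefly use and the rate-limiting enzyme of guanine nucleotide synthesis, lies on chromosome 3 from 49024325 to 49029447 on the minus strand (ENSG00000178035, GRCh38). Its raw counts were 5621, 5888 and 5816 in sh-control and 1743, 2265 and 2079 in sh-circFTO. Its level was 76.6, 74.7 and 80.4 normalised FPKM in sh-control and 24.2, 26.6 and 26.1 in sh-circFTO. Every sh-circFTO library lay far below every sh-control library, and the gap between the groups was many times the spread within either. The mean fell from 77.2 ± 2.90 to 25.6 ± 1.24 (SD, n = 3), a log2 fold change of -1.59 (SE 0.0445, adjusted p = 9.6e-23 in edgeR's quasi-likelihood test, adjusted by Benjamini-Hochberg). That change stood at percentile 2.13 of the fold changes of all tested genes, counted from the largest fall. With library totals only it was -1.44.

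IMPDH1, the isozyme that catalyses the same reaction and is known for its role in the retina, was much less abundant and changed little (ENSG00000106348, chromosome 7 from 128392277 to 128410252). Its level was 8.98, 9.74 and 9.97 normalised FPKM in sh-control and 8.54, 8.13 and 8.08 in sh-circFTO, so the groups lay apart by less than the spread within sh-control. On the log2 scale the change was -0.21 (SE 0.0770, adjusted p = 0.015 in edgeR). The call was lost with library totals only (-0.07, adjusted p = 0.429), without sh-control replicate 3 (adjusted p = 0.0554) and without sh-circFTO replicate 2 (adjusted p = 0.0515). The table lists 10 IMPDH1 pseudogenes, with 130 counts in the sh-control group and 196 in the other, beside 1536 and 1395 for IMPDH1, and how the authors' counting split reads among them is not given in the sources used here.

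Because both isozymes were read in the same library, their ratio does not depend on library scaling. IMPDH2 stood at 8.53, 7.67 and 8.06 times the IMPDH1 level per kilobase in sh-control and at 2.84, 3.27 and 3.22 times in sh-circFTO. The log2 ratio fell by 1.38 between the groups, which did not overlap (two-sided exact permutation p = 0.1, the smallest that 3 libraries against 3 can give, and 0.1 after adjustment over the 3 ratios computed). IMPDH2 thus made up 89.0% ± 0.525 of the summed IMPDH level per kilobase in sh-control and 75.6% ± 1.45 in sh-circFTO. IMPDH2 remained the more abundant isozyme in all 6 libraries.

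GMPS, which converts the product of IMP dehydrogenase into GMP, moved the same way by a small amount (ENSG00000163655, chromosome 3 from 155870650 to 155944020). Its level was 11.7, 11.3 and 13.4 normalised FPKM in sh-control and 9.93, 10.1 and 10.5 in sh-circFTO. The groups did not overlap, although sh-control replicate 2 and sh-circFTO replicate 3 were close. On the log2 scale the change was -0.25 (SE 0.0573, adjusted p = 0.000332 in edgeR), and with library totals only the call was lost at -0.10 (adjusted p = 0.106).

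On the branch toward AMP, ADSL and the synthetase isozyme ADSS2 rose and ADSS1 fell. ADSL, adenylosuccinate lyase (ENSG00000239900, chromosome 22 from 40346461 to 40390463), had 4.59, 4.15 and 4.27 normalised FPKM in sh-control and 4.85, 5.23 and 5.14 in sh-circFTO. All 3 sh-circFTO libraries lay above all 3 sh-control libraries, by a narrow margin. On the log2 scale the change was 0.23 (SE 0.0620, adjusted p = 0.0018 in edgeR), and 0.37 with library totals only. SGSM3, a gene on the same strand, overlaps ADSL over 19873 bp and held 175 and 185 counts in the groups, beside 2299 and 2846 for ADSL. Another gene on that strand, ENSG00000284431, overlaps ADSL over 43935 bp, nearly its whole span, and held 20 and 17 counts. How reads that fall in overlapping genes were counted is not given in the sources used here. ADSS2, the adenylosuccinate synthetase isozyme most tissues use, had 18.2, 15.8 and 17.5 normalised FPKM in sh-control and 21.5, 21.6 and 22.9 in sh-circFTO. It rose by 0.36 on the log2 scale (SE 0.0605, adjusted p = 5.84e-06 in edgeR). ADSS1, the muscle isozyme, was scarce and fell from 2.12 ± 0.0846 to 1.26 ± 0.0195, a log2 fold change of -0.75 (SE 0.132, adjusted p = 1.09e-05 in edgeR).

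The enzymes that draw on IMP were also set side by side, a comparison chosen after the values were seen and given with no test. The summed level of IMPDH1 and IMPDH2 was 4.23, 4.69 and 4.59 times that of ADSS1 and ADSS2 in sh-control. In sh-circFTO it was 1.44, 1.52 and 1.41 times. The mean ratio was 4.51 ± 0.243 and 1.46 ± 0.0558 (SD, n = 3). The IMPDH sum thus exceeded the ADSS sum in every library, and by less in sh-circFTO. GMPS and ADSL are in neither sum. These are RNA levels per exonic length, not enzyme activities.

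**Figure D2:**
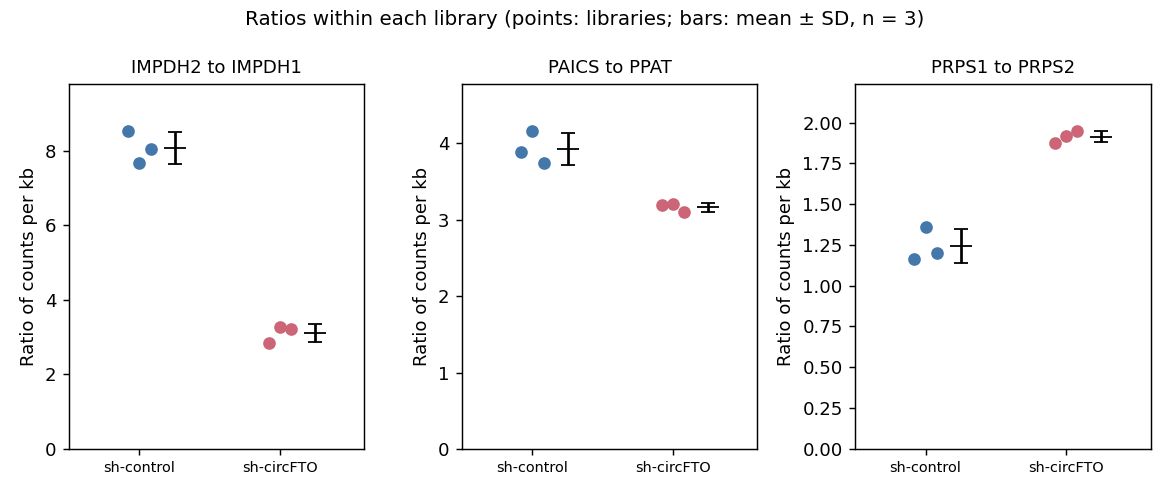
Ratios of counts per kilobase within each library for IMPDH2 to IMPDH1, PAICS to PPAT, and PRPS1 to PRPS2, with each library as a point and the mean ± SD of 3 libraries as a bar. The groups do not overlap in any panel: the first ratio is 7.67 to 8.53 in sh-control and 2.84 to 3.27 in sh-circFTO, the second is also lower in sh-circFTO, and the third is higher.

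At the entry to the pathway, PRPS1 was not called (ENSG00000147224, chromosome X from 107628428 to 107651993). Its level was 14.0, 13.3 and 14.1 normalised FPKM in sh-control and 15.2, 14.6 and 15.4 in sh-circFTO. The sh-circFTO libraries were all slightly higher, but the log2 fold change of 0.12 (SE 0.0635) had an adjusted p of 0.0863 in edgeR, and with library totals only it was 0.27 and called (adjusted p = 0.00045). The isozyme PRPS2 had 12.1, 9.80 and 11.8 normalised FPKM in sh-control and 8.08, 7.63 and 7.89 in sh-circFTO, and fell by 0.51 on the log2 scale (SE 0.0898, adjusted p = 1.14e-05 in edgeR). The ratio of PRPS1 to PRPS2 was 1.16, 1.36 and 1.20 in sh-control and 1.88, 1.92 and 1.95 in sh-circFTO. The log2 ratio rose by 0.63, with no overlap between groups (two-sided exact permutation p = 0.1, the smallest possible, and 0.1 adjusted over the 3 ratios). The regulatory partners of the synthetases went apart. PRPSAP1 fell from 25.7 ± 0.472 to 15.7 ± 1.21 normalised FPKM (log2 fold change -0.71, SE 0.050, adjusted p = 2.29e-13 in edgeR). PRPSAP2 was 7.08 ± 0.619 and 8.41 ± 0.328, a rise of 0.25 (SE 0.0767, adjusted p = 0.00507 in edgeR) whose call was lost without sh-control replicate 2 (adjusted p = 0.0513).

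PPAT and PAICS lie head to head on chromosome 4 and are shown in sequence because they share a promoter region and only PAICS was called. PPAT (ENSG00000128059) runs from 56393362 to 56435615 on the minus strand and PAICS (ENSG00000128050) from 56435741 to 56464578 on the plus strand. The RefSeq promoter table (GRCh38.p14) lists 1 start site for PPAT and 3 for PAICS, with a window of 300 bases around each. The nearest PAICS start site is 137 bp from that of PPAT, and their windows share 236 bases. The other 2 PAICS windows share none with it and hold no CACGTG. The PPAT window, chr4:56435566-56435865 on the minus strand, and the ATIC window, chr2:215311809-215312108 on the plus strand, are given 5′ to 3′ with each CACGTG in capitals. CACGTG is the E-box that MYC and MAX bind, and it reads the same on both strands.
PPAT: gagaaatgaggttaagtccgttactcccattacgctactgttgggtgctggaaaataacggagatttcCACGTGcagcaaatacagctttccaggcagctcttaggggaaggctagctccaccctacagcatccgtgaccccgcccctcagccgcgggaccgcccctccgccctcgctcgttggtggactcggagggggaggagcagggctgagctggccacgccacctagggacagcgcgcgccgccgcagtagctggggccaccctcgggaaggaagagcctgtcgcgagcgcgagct
ATIC: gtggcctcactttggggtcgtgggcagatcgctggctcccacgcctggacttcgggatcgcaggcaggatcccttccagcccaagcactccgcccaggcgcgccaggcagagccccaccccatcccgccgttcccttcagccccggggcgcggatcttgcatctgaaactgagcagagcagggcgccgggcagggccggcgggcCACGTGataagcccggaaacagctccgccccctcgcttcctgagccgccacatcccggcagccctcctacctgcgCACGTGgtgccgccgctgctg
The CACGTG of the PPAT window begins at position -182 from its start site and is the same site, 56435792 to 56435797, that begins at position 41 from the nearest PAICS start site. ATIC holds the motif at positions -46 and 30. The table held 12 windows for 8 of the 10 genes. It held none for IMPDH2 or ADSL, so the promoters of these genes were not searched. CACGTG was in 3 of the 12, 1 each for PPAT, PAICS and ATIC, beside 7.26% of all 35116 windows. Counted by gene, it was in a window of 3 of the 8, beside 8.77% of all 27305 genes, and PPAT and PAICS count the same site. TGATGNAA, the core of the element bound by ATF4 with its partners, was in 0 of the 12 windows on either strand and in 3.62% of all windows, and TGACGTCA, the cyclic AMP response element, was in 0 and in 1.85%. A match is a description of these letters and not a measured binding site.

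PPAT, the amidotransferase of the committed step, had 12.3, 11.1 and 13.3 normalised FPKM in sh-control and 11.9, 11.4 and 11.9 in sh-circFTO. The groups overlapped and the sh-control libraries were the more scattered. On the log2 scale the change was -0.06 (SE 0.0632, adjusted p = 0.443 in edgeR), and its sign turned to 0.09 with library totals only. PAICS, which adds carbon dioxide and then aspartate to the ring, had 47.9, 46.1 and 49.8 normalised FPKM in sh-control and 38.0, 36.7 and 37.0 in sh-circFTO. Each sh-circFTO library was below the lowest sh-control library. PAICS fell by 0.36 on the log2 scale (SE 0.0402, adjusted p = 3.55e-09 in edgeR) and by 0.22 with library totals only. Within a library PAICS stood at 3.89, 4.16 and 3.74 times PPAT per kilobase in sh-control and at 3.19, 3.21 and 3.10 times in sh-circFTO. The log2 ratio fell by 0.31, with no overlap between groups (two-sided exact permutation p = 0.1, the smallest possible, and 0.1 adjusted over the 3 ratios).

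Between PPAT and IMP the other enzymes changed by less than 1.5-fold. PFAS, which uses glutamine to aminate an early intermediate (ENSG00000178921, chromosome 17 from 8247618 to 8270491), had 12.6, 13.4 and 12.2 normalised FPKM in sh-control and 9.57, 8.88 and 9.89 in sh-circFTO. The groups were well separated, and the log2 change was -0.43 (SE 0.0589, adjusted p = 1.67e-07 in edgeR). PFAS overlaps CTC1, a telomere maintenance gene on the other strand, over 439 bp. CTC1 held 1415 counts in the sh-control group and 3057 in the other, and whether the counting used strand is not given in the sources used here.

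GART, whose protein carries 3 activities of the pathway including a formyl transfer from folate (ENSG00000159131, chromosome 21 from 33503931 to 33543491), had 25.9, 24.5 and 25.7 normalised FPKM in sh-control and 25.8, 26.2 and 24.9 in sh-circFTO. The groups overlapped. On the log2 scale the change was 0.02 (SE 0.0423, adjusted p = 0.756 in edgeR), and with library totals only 0.16 and called (adjusted p = 0.00125). GART overlaps SON, a splicing factor gene on the other strand, over 454 bp, and SON held 13418 and 18801 counts. ATIC, which adds the last formyl group and closes the ring to IMP (ENSG00000138363, chromosome 2 from 215311956 to 215349773), had 74.6, 75.1 and 74.2 normalised FPKM in sh-control and 64.8, 68.8 and 70.0 in sh-circFTO. The sh-circFTO libraries were all lower and more scattered. The log2 fold change of -0.14 (SE 0.0407, adjusted p = 0.0039 in edgeR) was no longer called when sh-circFTO replicate 1 was left out (-0.10, adjusted p = 0.0518), and with library totals only its sign turned to 0.01 (adjusted p = 0.862).

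**Figure D3:**
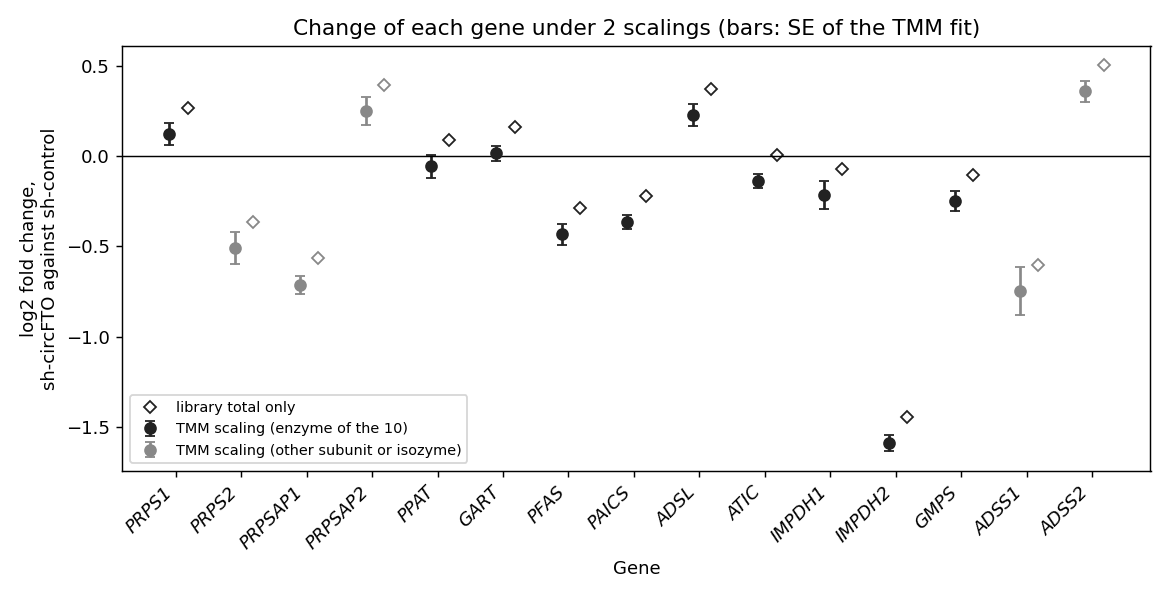
Log2 fold change of sh-circFTO against sh-control for the 10 enzymes (black) and 5 other subunits and isozymes (grey), with filled circles and SE bars for TMM scaling and open diamonds for library totals only. The diamonds sit about 0.145 above the circles, which turns the sign of PPAT and ATIC but leaves IMPDH2 at -1.44.

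Per kilobase of exonic length, the order of the enzymes changed mainly through IMPDH2. In sh-control IMPDH2 (77.2) and ATIC (74.6) were the most abundant, with overlapping ranges, followed by PAICS (47.9) and GART (25.4). PRPS1 (13.8), PFAS (12.7), PPAT (12.2) and GMPS (12.1) formed a group in which each neighbour's range overlapped the next, and IMPDH1 (9.57) and ADSL (4.34) were lowest. In sh-circFTO ATIC (67.9) and PAICS (37.3) led, and IMPDH2 (25.6) and GART (25.6) were level with each other. The exonic lengths include every annotated exon, so a gene with long rarely used exons reads low on this scale. They are 12109 bp for ADSL and 5123 bp for IMPDH2, which is the whole span of the IMPDH2 gene. The order of the genes, and the shares and ratios of levels between genes, rest on these lengths.

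The summed level of the 10 was 290 ± 6.98 normalised FPKM in sh-control and 216 ± 3.13 in sh-circFTO, a description with no test. Without IMPDH2 the sums were 213 ± 4.10 and 191 ± 2.18. IMPDH2 held 26.6% ± 0.363 of the summed level in sh-control and 11.9% ± 0.442 in sh-circFTO. Of the 73.8 units by which the mean sum was lower in sh-circFTO, 22.3 remained when IMPDH2 was left out.

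The genes around the pathway were taken from lists of 37 other purine genes, of which 33 were tested, 19 lower and 10 higher (15 and 12 with library totals only). Of all tested genes 34.8% were lower and 34.9% higher (27.0% and 44.3% with library totals only). The lists' median log2 fold change was -0.22 beside 0.00 over all tested genes, and -0.08 beside 0.15 with library totals only. The list headed suppliers of glycine, formyl groups and glutamine held most of the large falls. It also holds ALDH1L1 and ALDH1L2, which use up formyl folate and do not supply it. Of its 8 tested genes, 7 were lower and 1 higher under both scalings. Their median was -1.34, and -1.20 with library totals only. The serine hydroxymethyltransferases SHMT1 and SHMT2 and the folate enzyme MTHFD2, all of which handle the carbon taken from serine, changed by -1.18, -1.50 and -1.82. MTHFD1L, the mitochondrial enzyme that releases formate, fell from 25.7 ± 0.450 to 8.93 ± 0.144 normalised FPKM (log2 fold change -1.52, SE 0.0536). ALDH1L2, a mitochondrial formyl-folate dehydrogenase, fell from 1.32 ± 0.0609 to 0.273 ± 0.0405 (-2.27, SE 0.167). Its deposited FPKM was 1.21 to 1.32 in sh-control and 0.25 to 0.33 in sh-circFTO. ALDH1L2, counted among the 7 lower genes of this list, thus passed the filter on low values only through the group where it was high. The cytosolic relative ALDH1L1, too low to be tested, held 48 and 7 counts. GLUL, glutamine synthetase, fell from 23.0 ± 0.528 to 14.3 ± 0.213 (-0.68, SE 0.0405). MTHFD1, the cytosolic enzyme that makes the formyl donor GART and ATIC use, fell by less, from 12.5 ± 0.405 to 9.93 ± 0.328 (-0.33, SE 0.0462). In edgeR the adjusted p was 2.08e-20 for MTHFD1L, 6.81e-13 for ALDH1L2, 4.87e-15 for GLUL and 2.65e-07 for MTHFD1. MTHFD2L rose by 0.26, and leaving out sh-control replicate 1 ended that call (adjusted p = 0.0545).

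Salvage enzymes, which rebuild nucleotides from free bases and nucleosides, had 3 of 6 higher and 2 lower (4 and 1 with library totals only), so that 5 of 6 were called beside 69.7% of all tested genes. PNP, which splits inosine and guanosine, rose most, from 13.4, 14.0 and 14.5 normalised FPKM in sh-control to 32.8, 35.9 and 34.9 in sh-circFTO. The groups were far apart (log2 fold change 1.31, SE 0.0533, adjusted p = 6.81e-19 in edgeR). DCK and DGUOK, the cytosolic and mitochondrial deoxynucleoside kinases, moved in opposite directions, by -0.80 (SE 0.0795) and 0.46 (SE 0.0563). ADK, adenosine kinase, rose by 0.28 (SE 0.0517). HPRT1, which salvages hypoxanthine and guanine, changed by -0.28 (SE 0.0821, adjusted p = 0.00351 in edgeR), a call lost with library totals only (-0.13, adjusted p = 0.144). APRT, which salvages adenine, was at 0.02 (SE 0.0637, adjusted p = 0.792 in edgeR) and was called higher at 0.17 with library totals only (adjusted p = 0.022).

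Of 11 genes of purine interconversion and breakdown, 8 were tested, with 3 higher and 4 lower (4 and 3 with library totals only), beside 34.9% higher and 34.8% lower among all tested genes (44.3% and 27.0%). Of the AMP deaminases, which return AMP to IMP, AMPD2 and AMPD3 were higher. AMPD3, at a low level, had 37, 36 and 27 counts in sh-control and 153, 164 and 162 in sh-circFTO. Its log2 fold change was 2.18 (SE 0.180, adjusted p = 8.48e-12 in edgeR). Its deposited FPKM was 0.27 to 0.36 in sh-control and 1.53 to 1.69 in sh-circFTO. AMPD3, counted among the 3 higher genes, thus passed the filter on low values only through the group where it was high. AMPD2, the more abundant of the deaminases, rose from 6.50 ± 0.252 to 8.41 ± 0.140 normalised FPKM (0.37, SE 0.0562), and AMPD1 had 0 and 1 counts. ADA, adenosine deaminase, rose by 0.77 (SE 0.129). GMPR2, which converts GMP back to IMP, changed by -0.36 (SE 0.0463), and GMPR had 0 and 3 counts. GDA, guanine deaminase, fell from 6.06 ± 0.290 to 2.75 ± 0.129 (-1.14, SE 0.0771), and NT5E, the surface enzyme that makes adenosine from AMP, by 0.75 (SE 0.0567). XDH, the last enzyme of purine breakdown, had 0 and 1 counts. NT5C2, which dephosphorylates IMP and GMP, was not called at 0.05 and was called higher at 0.20 with library totals only (adjusted p = 0.00169). ITPA changed by -0.16, a call lost with library totals only (adjusted p = 0.819) and without any 1 of sh-control replicates 1 and 3 and sh-circFTO replicates 1 and 2 (adjusted p from 0.0543 to 0.136).

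Of 6 purine nucleotide kinases, 3 were lower and 1 higher (1 and 1 with library totals only), so that 4 of 6 were called, close to the 69.7% of all tested genes. AK4, a mitochondrial adenylate kinase family member, fell from 21.3, 20.8 and 22.1 normalised FPKM in sh-control to 7.96, 9.01 and 8.24 in sh-circFTO. Its groups were far apart (log2 fold change -1.35, SE 0.0525, adjusted p = 2.27e-19 in edgeR). GUK1, which phosphorylates GMP and so follows GMPS, rose by 0.30 (SE 0.0620, adjusted p = 0.000108 in edgeR). NME2 changed by -0.22, a call lost with library totals only (adjusted p = 0.116), and NME1 was not called at -0.09, turning to 0.06 with library totals only. AK6 changed by -0.22, a call lost with library totals only (adjusted p = 0.465), with DESeq2 (adjusted p = 0.0641) and without any 1 of sh-control replicates 1 and 3 and sh-circFTO replicates 1 and 2 (adjusted p from 0.0737 to 0.110). AK1 was not called at -0.03 (adjusted p = 0.906), and its sign turned to 0.12 with library totals only.

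**Figure D4:**
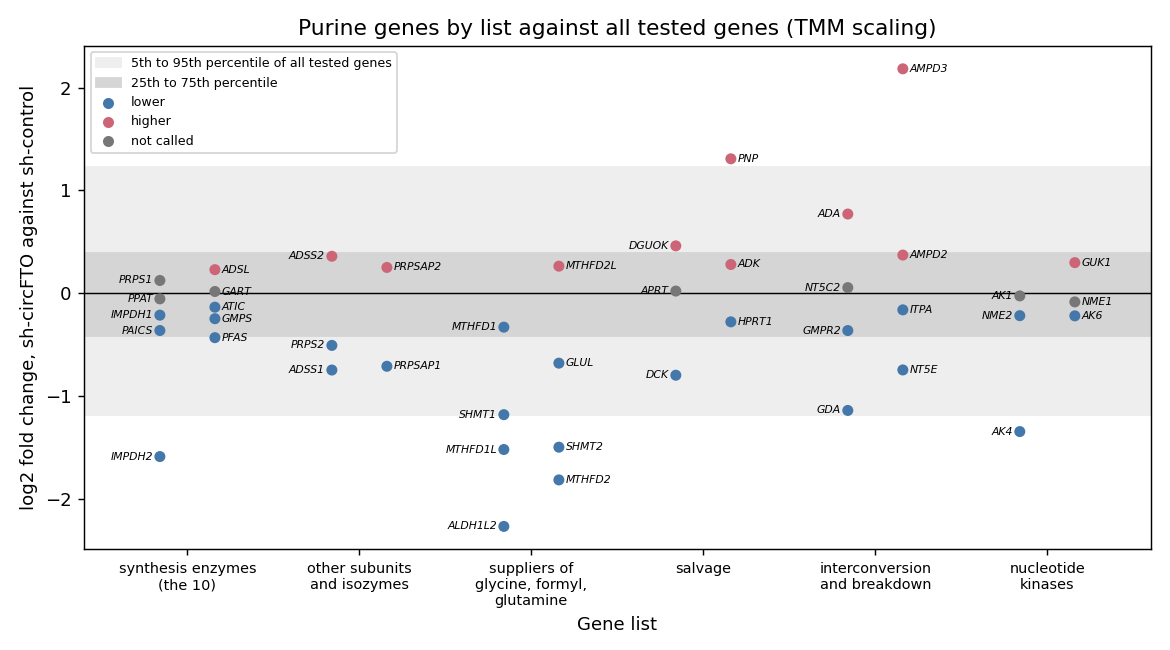
Log2 fold change (sh-circFTO against sh-control, TMM scaling) of each tested purine gene by list, coloured by its call, over bands of the 5th to 95th and 25th to 75th percentiles of all tested genes (the inner band runs from -0.42 to 0.39). Of the 10 synthesis enzymes, IMPDH2 alone falls outside the outer band, whose lower edge is at -1.19. From the supplier list, MTHFD1L, SHMT2, MTHFD2 and ALDH1L2 also lie below that edge, as does the nucleotide kinase AK4. PNP and AMPD3 lie above the upper edge, at 1.23. ALDH1L2 and AMPD3 passed the filter on low values only through the group where each was higher.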

How the data were processed

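RNA of 6 HepG2 libraries was measured, 3 per group, and groups came from the labels. Per the labels' protocols, RNA was extracted with a column kit and a SMARTER mRNA-Seq kit was used for the libraries. The authors deposited raw counts per Ensembl gene and, per the file headers, FPKM. The deposited FPKM equalled the count per kilobase of exonic length per 1000000 library counts, to within 0.005 for 363630 values. The sources used here do not name the aligner, counter, strand setting or annotation. As for builds, the submitters' processing notes list GRCm38, mm10 and hg18 with no role. The gene identifiers are human, and 56771 of 60605 genes, with all 10 enzymes among them, lay within 5000 bp of GENCODE release 29 on GRCh38, the build used here.

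The 12865 genes that reached an FPKM of 1 in 3 or more libraries were compared with edgeR 4.0.16 in R 4.3.3 (quasi-likelihood test, TMM on library totals, Benjamini-Hochberg over all tested genes, threshold 0.05). The SE is the log2 fold change divided by the square root of the F statistic. The 3 ratios were compared with an exact permutation test. Every one of the 10 enzymes is named, with the 37 genes of 5 further lists (1 more gene of these lists is not reported here and not counted) and genes whose 5' ends overlap those of the enzymes. Enzymes and lists were chosen with earlier results of these data known. Each library was counted as 1 sample. Libraries of a group differed by more than sampling noise (chi-square per degree of freedom 2.06 to 4.66). That does not show that they came from separate cultures. Alternatives were other scalings, filters, DESeq2 1.42.0, limma 3.58.1 on log2(FPKM + 1) and log2(FPKM + 0.1), the replicate number as a block, and each library left out.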

Additional observations from a re-analysis of the deposited data

How the results depend on the processing

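The counts of enzymes called were 6 lower and 1 higher with median-of-ratios factors, 2 other filters and DESeq2. With library totals as the only scaling they were 3 lower and 3 higher, and likewise 3 and 3 with limma on log2(FPKM + 1) and log2(FPKM + 0.1), because the deposited FPKM divides by the library total. Leaving out each library gave 5 to 6 lower and 1 higher. The signs of these uncalled or small changes turned. PPAT was 0.090 with library totals and 0.085 and 0.091 with limma at these pseudocounts, and -0.127 to 0.0103 with each library left out. GART was -0.0041 with filterByExpr and -0.0015 with no filter, and -0.0127 to 0.0362 with each library left out. ATIC was 0.0086 with library totals and 0.0073 and 0.0074 with limma. AK1 was 0.118, 0.0733 and 0.103 under those 3 settings, and -0.152 to 0.113 with each library left out. NME1 was 0.060, 0.058 and 0.060 under them. IMPDH2 stayed called in each alternative, between -1.62 and -1.41. The differences in log2 ratio kept their sign with each library left out (IMPDH2 to IMPDH1 -1.42 to -1.32, PAICS to PPAT -0.35 to -0.27, PRPS1 to PRPS2 0.58 to 0.69). Same-numbered libraries showed no clear shared deviation (correlations 0.001, -0.019 and 0.074). With 3 libraries per group this cannot exclude that they were handled together. With the replicate number as a block, 8999 genes were called in place of 8969, 6 enzymes were lower and 1 higher, and the ratios had exact sign-flip p = 0.25, the smallest possible. The design of 3 against 3 cannot bring a ratio's p below 0.1.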
